A study of Rattus norvegicus with 16 samples.

Results

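The interaction of restraint and linalool asks whether the change with restraint in the hypothalamus differed when the odour was inhaled at the same time. It is a difference of differences: restraint with linalool minus linalool, minus the same change without odour, restraint minus control. All 16 arrays of the series enter it, 4 in each of 4 groups. The groups were rats given restraint with (R)-(-)-linalool for 2 h, rats given linalool alone for 2 h, rats given restraint alone for 2 h, and control rats given neither. All were male Wistar rats of 7 to 8 weeks, 1 rat per single-colour Affymetrix array, with RNA taken from the hypothalamus. A positive interaction means that the level moved up more, or down less, with restraint under linalool than without it. The same number also reads the other way, as the change with linalool among restrained rats minus the change with linalool among unrestrained rats.

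Restraint is a standard stressor for rats. It activates neurons of the paraventricular nucleus, which release corticotropin-releasing hormone, and the corticosterone that follows acts back on the brain through the glucocorticoid receptor. Neurons that have just been active transcribe immediate early genes such as Fos, and cells under protein-damaging or thermal strain transcribe heat shock genes. Linalool is a monoterpene alcohol of lavender and other plants with a floral odour, studied for sedative effects. The prefix (R)-(-) says which mirror image was used.

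Levels below are log2(signal + 16) after quantile normalization, each change is a difference on that scale with the standard error (SE) of limma's fit, and adjusted p is Benjamini-Hochberg over the 18625 probe sets kept. Each gene is given by its brightest kept probe set, and rats are listed in the order 1 to 4. Median signals of the arrays before normalization lay between 67.03 and 127.5, and the interaction of the median signal itself was 0.28 on the log2 scale. Signals of BioC, a control transcript added at hybridization, were higher on 3 arrays, at 915.9 to 968.4 (restraint with linalool rat 2, and rats 2 and 4 given linalool alone), against 247.5 to 283.4 on the other 13. Values within those 13 BioC-low arrays are given beside the genes and lists described most fully, and the 3 BioC-high arrays hold no restraint or control rat, so that no interaction can be formed from them. The hypothalamic peptide gene Avp averaged a signal of 4034 ± 780.1 in restraint with linalool rats, 4133 ± 1531 in linalool rats, 4366 ± 524.7 in restraint rats and 4275 ± 658.8 in control rats (SD, n = 4 each). Pmch, the precursor of melanin-concentrating hormone, lay between 5465 and 8611 in all 16 rats. The summed signal of 4 pituitary markers was 280.7 in control rat 3, against 2402 to 7078 in the other 15 rats.

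No probe set passed limma's test for the interaction, with 0 of 18625 called at an adjusted p under 0.05 (0% called). The smallest adjusted p was 0.0565, for Inpp5b, and 3 probe sets had an adjusted p under 0.25. At an unadjusted p under 0.05 there were 1489 probe sets (7.99%), 733 positive (3.94%) and 756 negative (4.06%), where 5% of all would be 931. The interaction had a median of -0.02 over all probe sets and a median SE of 0.17. Its size was over 0.5 for 853 probe sets and over 1 for 67. The change with restraint itself was called for more probe sets, 314 under linalool (1.69%, of which 1.12% higher and 0.564% lower). Without odour it was called for 168 (0.902%, of which 0.628% higher and 0.274% lower). These changes are taken between different rats, but their tests share a spread estimated from all arrays together, so the counts are not independent. Leaving out control rat 1 gave a count of 397 under linalool, and leaving out linalool rat 1 gave 122 without odour. The count under linalool was 143 and 127 without linalool rats 1 and 3, and 117 and 113 without restraint with linalool rats 1 and 2. The count without odour was 103, 70 and 81 without restraint rats 1, 2 and 4, and 81 and 76 without control rats 2 and 3. A count passing in one odour condition and not in the other is no test of a difference, which the interaction alone gives.

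**Figure D1:**
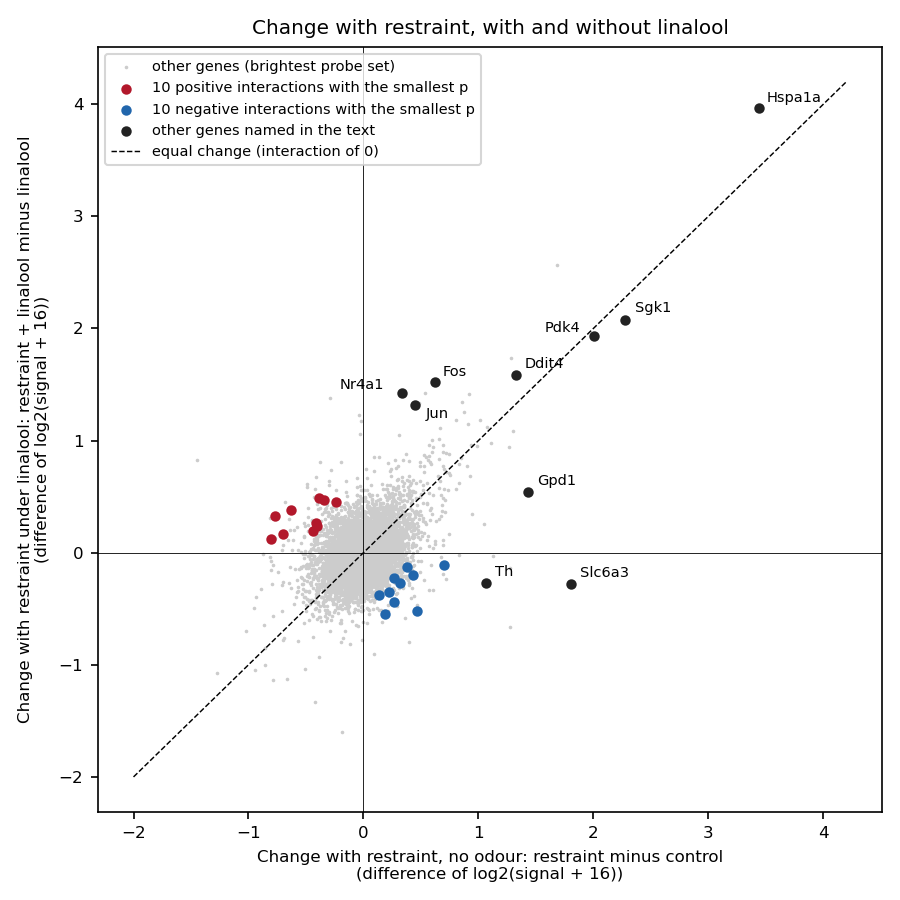
Each point is a gene, by its brightest probe set. The horizontal axis is the change with restraint without odour and the vertical axis the change with restraint under linalool, both as differences of log2(signal + 16), and the dashed line marks equal change. Sgk1, Pdk4 and Ddit4 lie near the line, Fos, Jun and Nr4a1 above it, and Th, Slc6a3 and Gpd1 below it, while the 20 genes with the smallest interaction p in either direction lie in the quadrants where the changes have opposite signs.

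Probe sets with a small interaction p mostly had changes with restraint of opposite sign in the 2 odour conditions. Of the 733 positive ones, 84.9% had changes of opposite sign, with a median change of 0.26 under linalool and -0.23 without odour. Of the 756 negative ones, 84.4% did, with medians of -0.21 under linalool and 0.18 without odour. Over all 18625 probe sets the share was 41.4%. The interaction p chose these probe sets, and a large difference between changes favours opposite signs, so that the shares are a description.

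Inpp5b, which encodes an inositol polyphosphate phosphatase, had the smallest interaction p. Its levels were 9.48, 9.50, 9.25 and 9.41 in restraint with linalool rats, against 9.09, 9.34, 9.24 and 9.29 in linalool rats. They were 8.96, 8.81, 8.91 and 8.67 in restraint rats, against 9.55, 9.42, 9.54 and 9.63 in control rats. All 4 restraint rats lay below every other rat of the study, and restraint with linalool rats overlapped with linalool rats. The interaction was 0.87 (SE 0.12, 95% interval 0.60 to 1.13, n = 4 per group), 1.82-fold, with an adjusted p of 0.0565. Without odour Inpp5b fell with restraint by 0.70 (adjusted p = 0.0011), and under linalool its change was 0.17 (adjusted p = 0.358). Within the BioC-low arrays the interaction was 0.91, and leaving out any 1 rat kept it between 0.81 and 0.92. Its adjusted p passed 0.05 in several other fits, given with the processing below, and not in others.

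Bmpr2, the type II receptor kinase for bone morphogenetic proteins, had levels of 9.72, 9.61, 9.71 and 9.42 in restraint with linalool rats, against 9.24, 9.18, 9.16 and 9.38 in linalool rats. In restraint rats they were 8.90, 8.52, 8.48 and 8.43, against 9.63, 9.07, 8.91 and 9.24 in control rats. Here restraint with linalool rats lay above all linalool rats, and restraint rats lay below all control rats. The interaction was 1.01 (SE 0.20, 95% interval 0.59 to 1.42, adjusted p = 0.294), 1.05 within the BioC-low arrays and 0.87 to 1.12 with 1 rat left out. Bmpr2 fell with restraint without odour by 0.63 (adjusted p = 0.0411), and its change under linalool was 0.38 (adjusted p = 0.192).

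Tspyl4, a member of the nucleosome assembly protein family, had a comparable shape at a brighter level. It measured 11.38, 11.52, 11.83 and 11.46 in restraint with linalool rats, against 11.03, 11.39, 11.49 and 10.99 in linalool rats, and 10.69, 10.63, 10.39 and 11.06 in restraint rats, against 11.69, 11.15, 11.66 and 11.37 in control rats. The restraint rats again had the lowest mean, with rat 4 above linalool rats 1 and 4, and the interaction was 1.09 (SE 0.23, adjusted p = 0.309). The other 7 genes of the 10 positive interactions with the smallest p lay between 0.64 and 0.93, each with an adjusted p of 0.379 to 0.39. Among them were Runx1t1, a transcriptional co-repressor (0.82, SE 0.18), and Chi3l1, a secreted glycoprotein of the chitinase family (0.87, SE 0.20). Tmed5, a cargo receptor between endoplasmic reticulum and Golgi, stood at 0.64 (SE 0.15), the axon guidance gene Sema3d at 0.69 (SE 0.16), Vof16 at 0.93 (SE 0.22) and Cplx2, whose product binds the SNARE complex at synapses, at 0.64 (SE 0.16). In all 10 genes the change with restraint was above 0 under linalool and below 0 without odour. Of these changes, only the falls of Inpp5b, Bmpr2, Tspyl4 and Vof16 without odour passed the test (adjusted p = 0.0011, 0.0411, 0.0347 and 0.0237).

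**Figure D2:**
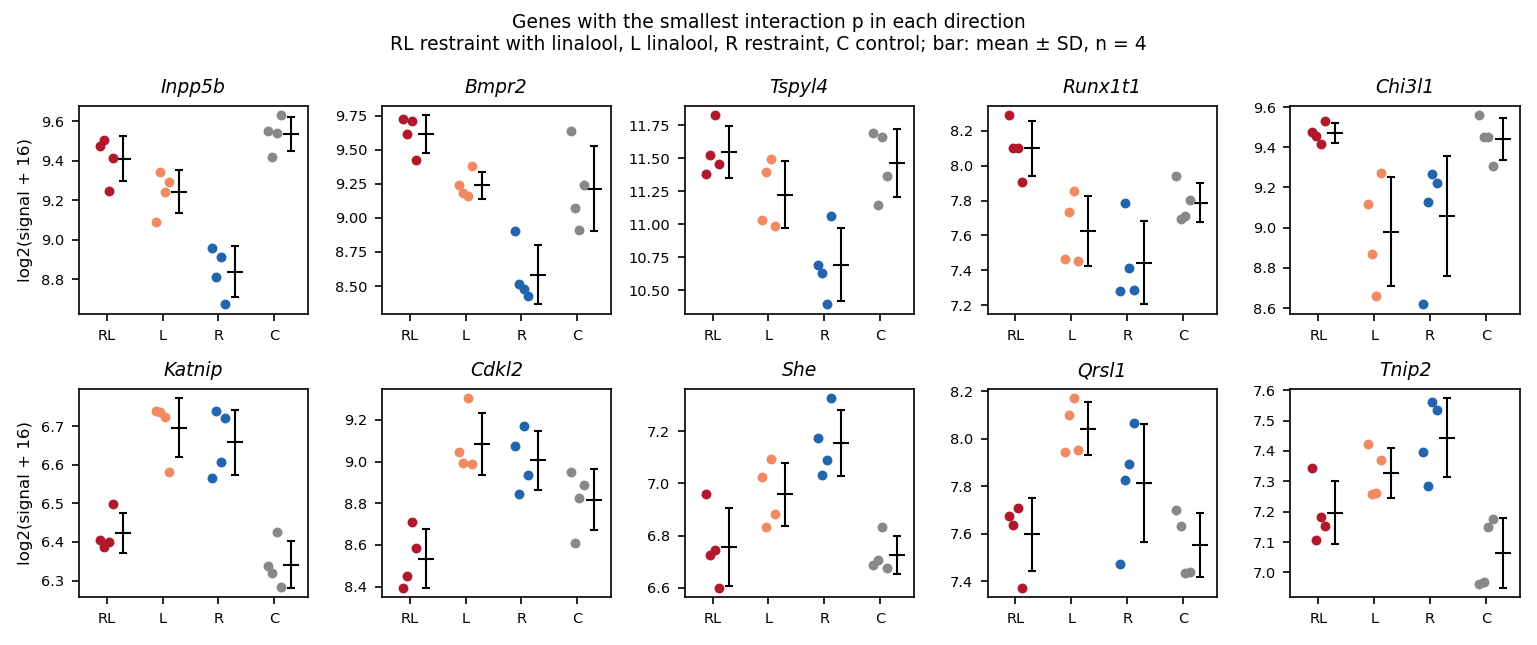
Levels by rat, as log2(signal + 16), of 5 genes with a positive interaction (upper row) and 5 with a negative one (lower row), the smallest p in each direction. Points are rats (4 per group), with the mean and SD beside them. Restraint rats hold the lowest mean for Inpp5b, Bmpr2, Tspyl4 and Runx1t1, and for Katnip the linalool and restraint rats lie above all restraint with linalool and control rats.

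Several genes had a small interaction p on a probe set other than their brightest, and the probe sets of the gene then differed. A probe set of Prrc2c gave 0.96 (SE 0.16, adjusted p = 0.135), while the brightest one gave 0.12 (SE 0.11). One of Rab14 gave 0.73 against -0.15 on the brightest, one of Tmem161b 0.71 against -0.02, and one of Gnas, the stimulatory G protein subunit, 1.34 (SE 0.30) against 0.04 (SE 0.09). For Eif3c the values were 1.06 and 0.41. These genes were named after their values were seen. Of the 10 genes above, Runx1t1 had 3 further kept probe sets, at 0.93, -0.06 and 0.47, and Vof16 had 1, at 0.38.

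The negative interaction with the smallest p was that of Katnip, which encodes a protein that interacts with the microtubule-severing enzyme katanin. Its levels were 6.41, 6.39, 6.40 and 6.50 in restraint with linalool rats, against 6.74, 6.74, 6.72 and 6.58 in linalool rats. They were 6.56, 6.74, 6.61 and 6.72 in restraint rats, against 6.34, 6.32, 6.43 and 6.28 in control rats. Rats given either treatment alone lay above all rats given both and all rats given neither. The interaction was -0.59 (SE 0.10, 95% interval -0.80 to -0.38, adjusted p = 0.135), and -0.61 within the BioC-low arrays. Without odour Katnip rose with restraint by 0.32 (adjusted p = 0.0426), and under linalool its change was -0.27 (adjusted p = 0.062).

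The 9 next negative interactions lay between -0.98 and -0.49, with adjusted p from 0.294 to 0.392. Cdkl2, a cyclin-dependent kinase-like kinase, averaged 8.54 ± 0.14 in restraint with linalool rats, against 9.08 ± 0.15 in linalool rats, and 9.01 ± 0.14 in restraint rats, against 8.82 ± 0.15 in control rats (SD, n = 4 each). It fell with restraint under linalool by 0.55 (adjusted p = 0.015), and its interaction was -0.74 (SE 0.15, adjusted p = 0.294). She, an SH2-domain adaptor, rose with restraint without odour by 0.43 (adjusted p = 0.0383) and had an interaction of -0.63 (SE 0.13). Ltc4s, the synthase of the inflammatory lipid leukotriene C4, fell with restraint under linalool by 0.38 (adjusted p = 0.0363) and had an interaction of -0.51 (SE 0.12). The others were Qrsl1 of mitochondrial tRNA charging (-0.71), Tnip2, an inhibitor of NF-kappa-B signalling (-0.51), the non-coding RNA Ftx (-0.49), the filamin-binding Rflnb (-0.98), the sulfotransferase Sult5a1 (-0.58) and Ddc (-0.81). In each of the 10 genes the change with restraint was below 0 under linalool and above 0 without odour. These signs follow in part from choosing the genes by the interaction.

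Immediate early genes, which neurons transcribe within minutes of activity, had mostly positive interactions. Of 34 genes listed 23 were measured, and 19 of the 23 were positive, where 43.3% of all 10309 genes were. The median was 0.22, against -0.02 over all probe sets. It was 0.16 within the BioC-low arrays and 0.14 to 0.28 with 1 rat left out. No member was called, 5 had an unadjusted p under 0.05 and a positive value, and 0 a negative one. Over all probe sets these shares were 3.94% and 4.06%. With restraint 6 members rose under linalool (Fos, Fosb, Jun, Nr4a1, Klf6 and Gadd45g), where 1.12% of probe sets did, and 1 rose without odour (Gadd45g), where 0.628% did.

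Fos, the transcription factor used as a marker of neuronal activation, had levels of 10.77, 10.53, 9.73 and 9.40 in restraint with linalool rats, against 8.82, 8.64, 8.53 and 8.35 in linalool rats. In restraint rats they were 9.68, 9.31, 8.42 and 9.31, against 8.99, 8.53, 8.53 and 8.19 in control rats. All restraint with linalool rats lay above all linalool rats, whereas restraint rat 3 fell inside the range of control rats. The change with restraint was 1.52 under linalool (SE 0.29, adjusted p = 0.014) and 0.62 without odour (SE 0.29, adjusted p = 0.39). The interaction was 0.90 (SE 0.41, 95% interval 0.04 to 1.76), with an unadjusted p of 0.0417 and an adjusted p of 0.612. It was 0.67 within the BioC-low arrays (unadjusted p = 0.197) and 0.65 to 1.14 with 1 rat left out.

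Jun, the partner of Fos in the AP-1 factor, measured 10.93, 10.79, 10.13 and 9.90 in restraint with linalool rats, against 9.15, 9.05, 8.90 and 9.41 in linalool rats. The restraint rats had 9.98, 9.96, 9.41 and 9.63, against 9.20, 9.36, 9.43 and 9.19 in control rats. The groups separated under linalool and overlapped without it. Jun had an interaction of 0.87 (SE 0.28, adjusted p = 0.494), 0.85 within the BioC-low arrays, and its other probe sets gave 0.55 (SE 0.23) and 0.49 (SE 0.34). Nr4a1, an orphan nuclear receptor induced by activity, measured 9.38, 9.13, 8.02 and 7.60 in restraint with linalool rats, against 7.14, 7.03, 7.06 and 7.18 in linalool rats. Restraint rats had 8.06, 7.78, 7.22 and 7.43, against 7.13, 7.26, 7.43 and 7.35 in control rats. In Fos, Jun and Nr4a1 alike, restraint with linalool rats 1 and 2 were higher than rats 3 and 4. The interaction of Nr4a1 was 1.09 (SE 0.42, adjusted p = 0.559), and 0.90 within the BioC-low arrays. Ier2 (0.54, SE 0.22) and Jund (0.30, SE 0.14) were the other members with an unadjusted p under 0.05, while Egr1 stood at 0.48, Arc at 0.22, Homer1 at 0.00 and Bdnf at -0.21. The second probe set of Jund gave -1.39 (SE 0.75).

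Promoters were sought for Fos, Jun, Nr4a1 and Th, and those of Fos and Jun were missing from the sequences used. The promoters of Nr4a1 and Th, whose interactions had opposite signs, are therefore the ones shown. Both are textbook targets of cAMP signalling through CREB. The sequences are from RefSeq, build GRCr8, and run from 250 bases before to 50 bases after the start of the gene. The capitals mark the CREB motif TGACGTCA and its short forms TGACG and CGTCA, searched on both strands. Nr4a1 lies at chr7:134259888-134260187 on the plus strand and Th at chr1:207508169-207508468 on the minus strand.
Nr4a1: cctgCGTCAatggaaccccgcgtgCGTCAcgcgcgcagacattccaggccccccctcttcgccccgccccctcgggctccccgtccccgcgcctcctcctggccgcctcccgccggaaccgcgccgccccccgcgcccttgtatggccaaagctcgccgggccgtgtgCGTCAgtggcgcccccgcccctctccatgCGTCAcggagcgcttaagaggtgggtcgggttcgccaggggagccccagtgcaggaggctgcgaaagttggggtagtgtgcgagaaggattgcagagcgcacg
Th: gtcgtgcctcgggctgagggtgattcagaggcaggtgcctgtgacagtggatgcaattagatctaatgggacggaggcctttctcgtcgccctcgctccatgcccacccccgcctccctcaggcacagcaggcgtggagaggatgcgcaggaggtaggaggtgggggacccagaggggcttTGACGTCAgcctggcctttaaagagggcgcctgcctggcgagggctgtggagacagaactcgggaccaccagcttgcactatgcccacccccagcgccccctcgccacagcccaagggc

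The window of Nr4a1 held 4 short forms, all read as CGTCA, with first bases at -246, -226, -82 and -53 from the start, and 0 full motifs. The window of Th held 1 full motif, whose short forms TGACG and CGTCA overlap and begin at -69 and -66. Of 33469 promoters of the same length, 21.2% held a short form and 1.83% the full motif. These matches describe letters only.

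Genes of monoamine and histamine transmission had mostly negative interactions. Of 20 genes listed for monoamines and histamine, 14 were measured, 3 of the 14 had a positive interaction and the median was -0.15. It was -0.20 within the BioC-low arrays and -0.23 to -0.15 with 1 rat left out, and with the signals as deposited the sign turned, to 0.09, where the median over all probe sets was also higher, at 0.22. No member was called for the interaction. The 3 members with an unadjusted p under 0.05 were all negative, where 4.06% of all probe sets were negative at that level. They are the dopamine transporter Slc6a3, the rate-limiting enzyme Th and the next enzyme of the pathway, Ddc. In whole tissue, fewer cells of a type and less RNA per cell cannot be told apart.

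Th, tyrosine hydroxylase, had levels of 9.75, 9.29, 9.65 and 8.72 in restraint with linalool rats, against 9.94, 9.35, 9.57 and 9.61 in linalool rats. It had 10.56, 9.82, 10.11 and 9.999 in restraint rats, against 9.52, 9.38, 8.82 and 8.50 in control rats. Restraint rats lay above all control rats and all restraint with linalool rats, while the groups under linalool overlapped. The change with restraint was -0.27 under linalool (SE 0.24, adjusted p = 0.64) and 1.07 without odour (SE 0.24, adjusted p = 0.0515). The interaction was -1.34 (SE 0.35, 95% interval -2.07 to -0.60, unadjusted p = 0.00139, adjusted p = 0.392), -1.45 within the BioC-low arrays, and -1.49 to -1.12 with 1 rat left out.

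Slc6a3 measured 9.33, 8.61, 9.12 and 7.61 in restraint with linalool rats, against 9.44, 8.31, 9.10 and 8.91 in linalool rats. It measured 10.38, 9.51, 9.91 and 9.43 in restraint rats, against 8.93, 8.72, 8.03 and 6.31 in control rats. Restraint rats had the highest mean, with rat 4 at 9.43 just below linalool rat 1 at 9.44, and control rat 4 was the lowest of the 16. The interaction of -2.08 (SE 0.68, adjusted p = 0.494) was -2.40 within the BioC-low arrays and -1.52 at its smallest with 1 rat left out, and a second probe set gave -1.99 (SE 0.58). Ddc measured 9.41, 9.11, 9.50 and 8.96 in restraint with linalool rats, against 9.68, 9.06, 9.23 and 9.45 in linalool rats, and 10.07, 9.49, 9.74 and 9.83 in restraint rats, against 9.18, 9.13, 9.02 and 9.02 in control rats. Ddc rose with restraint without odour by 0.70 (adjusted p = 0.0351), the only member called in that comparison, and its interaction was -0.81 (SE 0.21, adjusted p = 0.392), and -0.86 within the BioC-low arrays. In all 3 genes rat 4 was the lowest of the restraint with linalool rats. That rat had a signal of 583.9 for Ttr, a marker of choroid plexus, against at most 193.6 in the other 15 rats. Its signals of the lateral hypothalamic peptides Pmch (5748) and Hcrt (595.8) were the lowest but for restraint rat 1 (5465 and 512.8). Without it the interactions were -1.12 for Th, -1.73 for Slc6a3 and -0.72 for Ddc. The vesicular monoamine transporter Slc18a2 stood at -0.37 (SE 0.36), the histamine-forming enzyme Hdc at -0.34 and the dopamine receptor Drd2 at -0.14 (SE 0.13).

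**Figure D3:**
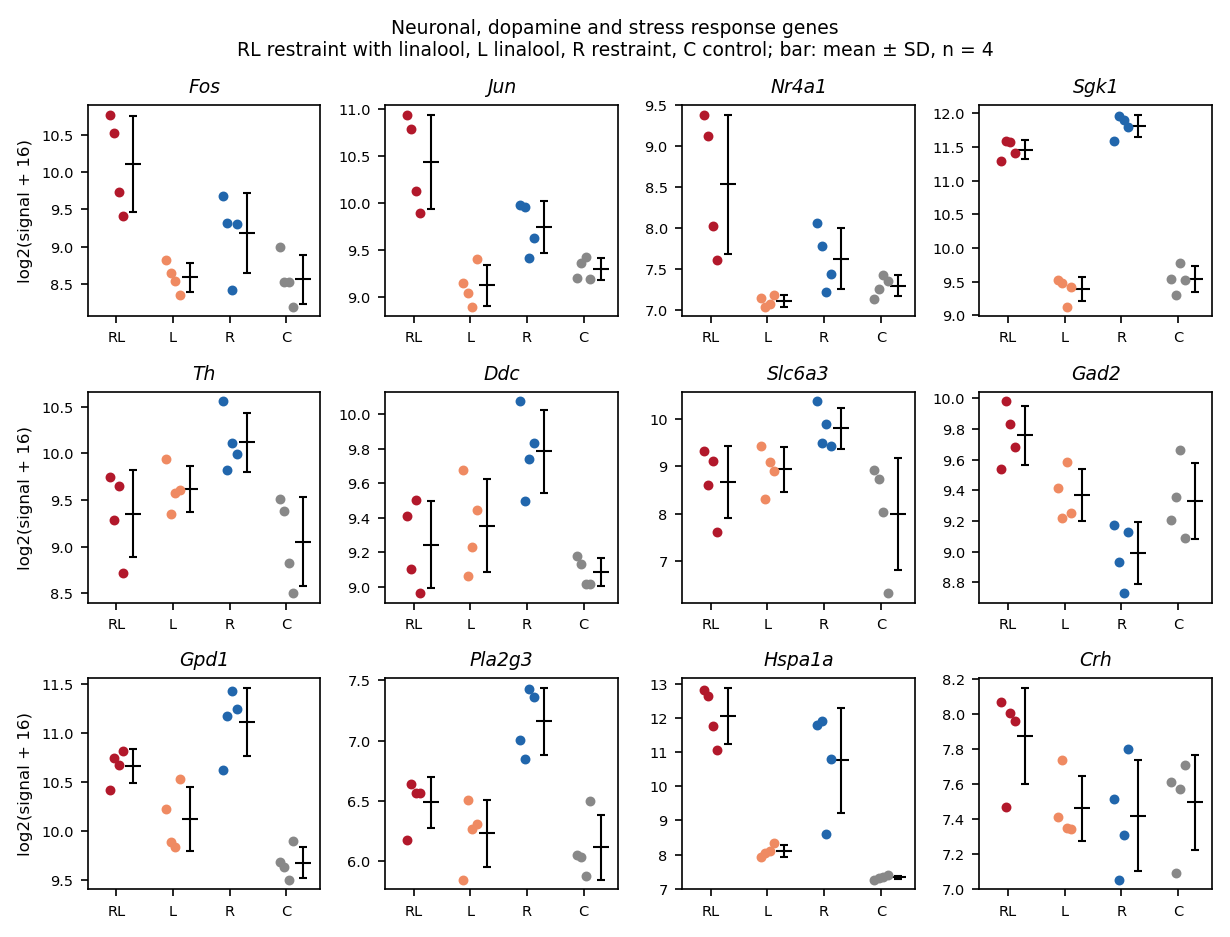
Levels by rat, as log2(signal + 16), of 12 genes of neuronal activity, dopamine, GABA, glucocorticoid response, heat shock and the stress axis. Points are rats (4 per group), with the mean and SD beside them. Fos, Jun and Nr4a1 have their highest mean in restraint with linalool rats, Th, Ddc and Slc6a3 in restraint rats, and Sgk1 is raised in both restrained groups.

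Of 36 listed genes that respond to glucocorticoids, 30 were measured. With restraint 17 of the 30 rose under linalool, where 1.12% of probe sets did, and 16 rose without odour, where 0.628% did. None was called for the interaction, and 5 had an unadjusted p under 0.05 (3 positive, 2 negative), where 7.99% of all probe sets did. The median interaction was -0.08, with 12 of 30 positive, and it was -0.11 within the BioC-low arrays and 0.16 with the signals as deposited. Sgk1, a kinase gene induced by corticosterone, had levels of 11.28, 11.59, 11.57 and 11.40 in restraint with linalool rats, against 9.53, 9.48, 9.13 and 9.42 in linalool rats. Restraint rats had 11.58, 11.96, 11.90 and 11.79, against 9.55, 9.31, 9.78 and 9.52 in control rats. Restrained rats were far above their unrestrained counterparts in either condition, and the interaction of -0.20 (SE 0.17, 95% interval -0.56 to 0.16) is small beside changes of 2.07 and 2.27. With the signals as deposited it was 0.10.

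Of other members, Pdk4, a kinase that limits glucose oxidation, had an interaction of -0.07 (SE 0.25), Plekhf1 0.05 (SE 0.12), Ddit4, an inhibitor of mTOR, 0.26 (SE 0.17), and Per1 -0.13 (SE 0.23). The glucocorticoid receptor co-chaperone Fkbp5 had -0.25 (SE 0.19), beside changes with restraint of 0.68 under linalool and 0.93 without odour. The 95% intervals of these 5 genes reached -0.66 (Fkbp5) and 0.63 (Ddit4), and a second Fkbp5 probe set gave -0.68 (SE 0.32). The members with the smallest p went both ways. Gpd1, glycerol-3-phosphate dehydrogenase, measured 10.41, 10.74, 10.67 and 10.81 in restraint with linalool rats, against 10.22, 9.88, 9.83 and 10.53 in linalool rats. It measured 10.61, 11.17, 11.42 and 11.24 in restraint rats, against 9.68, 9.63, 9.50 and 9.89 in control rats. The groups overlapped under linalool and were apart without it. Gpd1 rose with restraint without odour by 1.44 (adjusted p = 0.000778), its change under linalool was 0.54 (adjusted p = 0.131), and the interaction was -0.89 (SE 0.24, adjusted p = 0.412), which was -0.83 within the BioC-low arrays. A second Gpd1 probe set gave -1.08 (SE 0.41).

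Pla2g3, a secreted phospholipase, rose with restraint without odour by 1.04 (adjusted p = 0.00724), with a change of 0.25 under linalool and an interaction of -0.79 (SE 0.24, adjusted p = 0.479). Rat 1 of the restraint with linalool group, at 6.17, lay apart from the other 3. On the positive side, Tiparp rose in both conditions, by 0.85 under linalool and 0.55 without odour, with an interaction of 0.31 (SE 0.12). Glul, the glutamine synthetase of astrocytes, had an interaction of 0.40 (SE 0.16). Cebpb, a transcription factor of the acute phase response, rose under linalool by 1.34 (adjusted p = 0.021), with a change of 0.48 without odour and an interaction of 0.85 (SE 0.39), which was 0.48 within the BioC-low arrays. All 3 had adjusted interaction p-values of 0.576 to 0.612.

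Of 25 heat shock genes measured, 13 rose with restraint under linalool, where 1.12% of probe sets did, and 7 rose without odour, where 0.628% did. No interaction passed the test. The 25 measured members of 27 listed gave 0 calls and 0 values with an unadjusted p under 0.05. The median interaction was 0.18, with 17 of 25 positive, and 0.09 within the BioC-low arrays. Hspa1a, the inducible Hsp70, measured 12.83, 12.63, 11.75 and 11.06 in restraint with linalool rats, against 7.94, 8.04, 8.11 and 8.33 in linalool rats. It measured 11.79, 11.90, 8.59 and 10.79 in restraint rats, against 7.26, 7.32, 7.34 and 7.39 in control rats. Restraint rat 3 was far below the other restraint rats, and the interaction of 0.53 (SE 0.76) was -0.20 without that rat. All linalool rats lay above all control rats for Hspa1a, with a difference of 0.78 (SE 0.54, adjusted p = 0.653), and the SE rests on the spread of all 4 groups. Hspb1, a small heat shock protein gene, had an interaction of 0.88 (SE 0.61), Dnajb1, a co-chaperone of Hsp70, 0.46 (SE 0.29), and Hspb8 0.39 (SE 0.19). Restraint rat 3 was the lowest of its group for these genes too, at 8.11, 10.30 and 8.99. With 1 rat left out, their interactions were 0.48, 0.24 and 0.28 at their smallest.

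**Figure D4:**
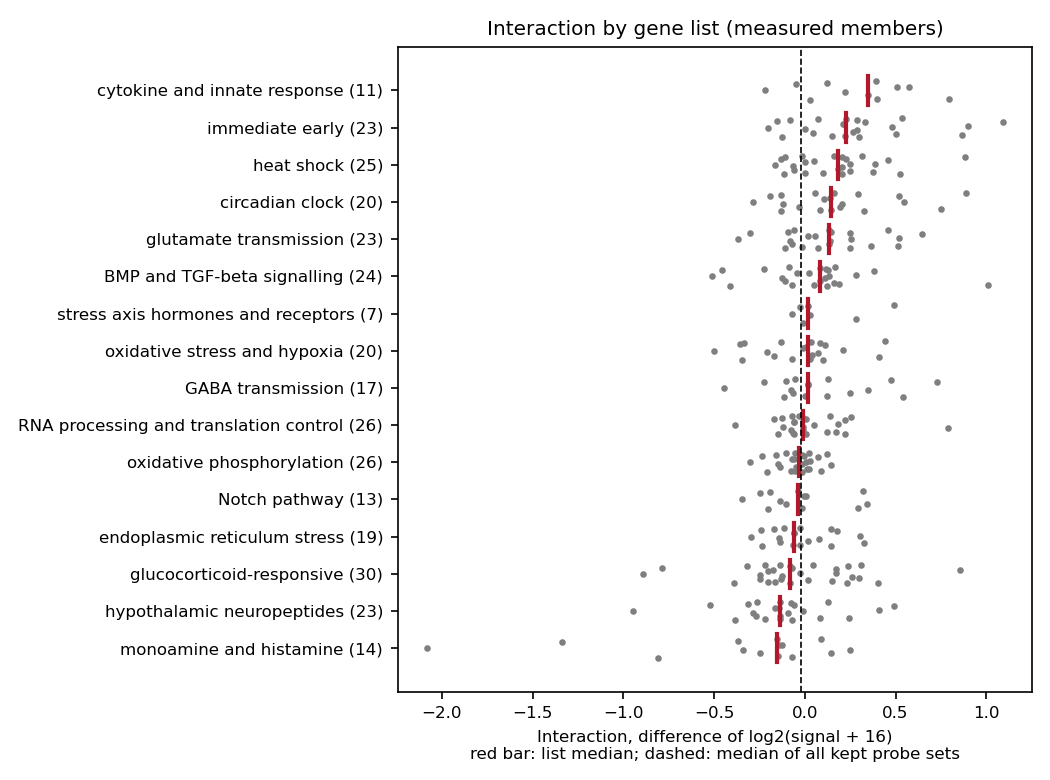
Interaction of each measured member (points) in 16 gene lists, as a difference of log2(signal + 16). Red bars are list medians, the number of members is in brackets, and the dashed line is the median of all kept probe sets (-0.02). Cytokine and innate response genes have the highest median (0.35) and monoamine and histamine genes the lowest (-0.15).

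Stress axis genes did not show a called interaction, and 7 of 16 listed were measured. Crh, corticotropin-releasing hormone, had levels of 8.07, 7.47, 8.01 and 7.96 in restraint with linalool rats, against 7.41, 7.74, 7.35 and 7.34 in linalool rats. It had 7.51, 7.05, 7.31 and 7.80 in restraint rats, against 7.61, 7.09, 7.57 and 7.71 in control rats. The groups overlapped in both conditions. Its interaction was 0.49 (SE 0.25, 95% interval -0.03 to 1.01, unadjusted p = 0.0619, adjusted p = 0.637), and 0.71 within the BioC-low arrays (unadjusted p = 0.0164). Avp, vasopressin, stood at -0.01 (SE 0.32) and its sign turned under several fits. Oxt, oxytocin, stood at -0.07, the glucocorticoid receptor Nr3c1 at 0.02, the mineralocorticoid receptor Nr3c2 at 0.03 and the cortisone-reducing enzyme Hsd11b1 at 0.28 (SE 0.24).

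Among hypothalamic neuropeptides 23 of 28 were measured, 5 of the 23 were positive and the median was -0.14, which was -0.12 within the BioC-low arrays and 0.10 with the signals as deposited. The member with the smallest p was Npvf, the precursor of gonadotropin-inhibitory peptides in the dorsomedial hypothalamus. It measured 7.11, 6.92, 7.76 and 6.86 in restraint with linalool rats, against 7.31, 8.02, 8.07 and 7.59 in linalool rats. It measured 7.68, 7.09, 7.51 and 7.76 in restraint rats, against 7.15, 7.15, 6.80 and 7.51 in control rats. Groups overlapped in each pair, and the interaction was -0.95 (SE 0.31, unadjusted p = 0.00724, adjusted p = 0.494), and -0.81 within the BioC-low arrays. The feeding and growth peptides Npy (-0.29), Ghrh (-0.32), Sst (-0.26, SE 0.15) and Hcrt (-0.27) were also below 0, without an unadjusted p under 0.05.

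Genes of the inhibitory transmitter GABA split. Of 17 measured members of 22 listed, 2 were positive and 1 negative at an unadjusted p under 0.05. Of all probe sets, 3.94% were positive and 4.06% negative at that level. The median was 0.02, -0.051 within the BioC-low arrays (7 of 17 positive), -0.043 with BioC level as a block, and -0.050 to 0.16 with 1 rat left out. Gad2, which makes GABA from glutamate, measured 9.54, 9.98, 9.83 and 9.68 in restraint with linalool rats, against 9.41, 9.22, 9.59 and 9.25 in linalool rats. It measured 9.17, 8.93, 8.73 and 9.13 in restraint rats, against 9.21, 9.35, 9.66 and 9.09 in control rats. All restraint with linalool rats lay above all restraint rats. The interaction of Gad2 was 0.73 (SE 0.19, unadjusted p = 0.00176, adjusted p = 0.409) and 0.52 within the BioC-low arrays, whereas Gad1, the other GABA-forming enzyme, stood at -0.06. Gabbr1, a subunit of the GABA-B receptor, had 0.35 (SE 0.12), with further probe sets at 0.87, 0.29 and 1.78. Abat, which breaks GABA down, had -0.45 (SE 0.19), with 0.01 on a second probe set. Gabra2, a GABA-A receptor subunit, had 0.54 (SE 0.29, unadjusted p = 0.0839).

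Of 23 measured glutamate genes, Grin2a, an NMDA receptor subunit, averaged 7.88 ± 0.14 in restraint with linalool rats, against 7.70 ± 0.14 in linalool rats, and 7.25 ± 0.30 in restraint rats, against 7.71 ± 0.34 in control rats (SD, n = 4 each). Its interaction was 0.64 (SE 0.23, adjusted p = 0.516), and 0.59 within the BioC-low arrays. The glial glutamate transporter Slc1a2 had 0.51 (SE 0.18), and it was 0.31 within the BioC-low arrays. The obligatory NMDA subunit Grin1 had -0.37 (SE 0.17). The list median was 0.13 with 15 of 23 positive, 0.039 within the BioC-low arrays and 0.034 to 0.17 with 1 rat left out, and 0 members were called with restraint in either odour condition.

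Clock genes had a median of 0.14, with 14 of 20 positive, and 0.081 within the BioC-low arrays. Hlf, an output transcription factor of the clock, measured 9.43, 9.36, 9.38 and 9.87 in restraint with linalool rats, against 9.52, 9.23, 9.03 and 9.32 in linalool rats. It measured 8.95, 9.09, 9.03 and 8.75 in restraint rats, against 9.88, 9.26, 9.55 and 9.19 in control rats. Restraint rats lay below all control rats, and rat 4 of the restraint with linalool group stood above its companions. The interaction of Hlf was 0.75 (SE 0.22, adjusted p = 0.442) and 0.80 within the BioC-low arrays, with 0.13 and 0.20 on its other probe sets. Nr1d1, the repressor REV-ERB alpha, had 0.55 (SE 0.19), while the core genes Bmal1 (-0.29), Clock (-0.13), Cry1 (-0.19) and Per2 (0.10) were nearer 0. The highest member of the list stood at 0.89, without an unadjusted p under 0.05.

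In the signalling lists, cytokine and innate response genes had the highest median, 0.35 (0.26 within the BioC-low arrays), with 9 of 11 measured members positive and 0 with an unadjusted p under 0.05. Stat3, the transducer of interleukin-6 signals, had 0.39 (SE 0.18, unadjusted p = 0.0504) and 0.14 on a second probe set, and Vcam1 had 0.22 (SE 0.12). Only 11 of 24 listed genes were bright enough to be measured. In the list of bone morphogenetic protein and TGF-beta signalling, the antagonist Nog (0.38, SE 0.17) was positive besides Bmpr2, and the activin receptor Acvr2b (-0.41, SE 0.11, adjusted p = 0.412) and the target gene Id1 (-0.46, SE 0.21) were negative. On their brightest probe sets the other receptors and Smads lay between -0.13 and 0.28. A dimmer Smad5 probe set gave 0.71 (SE 0.16, adjusted p = 0.39), against -0.09 on the brightest. The lowest member of the list stood at -0.51, without an unadjusted p under 0.05. The list median of 0.08 describes 24 members that went both ways.

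The remaining lists stayed near the median of all probe sets. Notch pathway genes had a median of -0.04 over 13 members, endoplasmic reticulum stress genes -0.06 over 19, oxidative stress and hypoxia genes 0.02 over 20, oxidative phosphorylation genes -0.03 over 26 and RNA processing genes -0.01 over 26. Dnajc3, an endoplasmic reticulum co-chaperone, had 0.33 (SE 0.15). The lactate dehydrogenase subunit Ldha had -0.35 (SE 0.14), and Sdhc, of succinate dehydrogenase, -0.30 (SE 0.11). Ddx6, an RNA helicase of processing bodies, averaged 10.49 ± 0.08 in restraint with linalool rats, against 10.10 ± 0.11 in linalool rats, and 9.64 ± 0.28 in restraint rats, against 10.04 ± 0.35 in control rats (SD, n = 4 each). Its interaction was 0.79 (SE 0.22, adjusted p = 0.412) and 0.81 within the BioC-low arrays, with 0.37 and 0.15 on its other probe sets, and rat 1 of the restraint group lay apart at 10.06. Rbm25, a splicing factor, had -0.39 (SE 0.14).

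Markers of cell types were measured in the same fit, and their part in the results above was not tested. For microglia the median was 0.32 over 15 markers, 11 of them positive, and it was 0.16 within the BioC-low arrays. Their summed signal was 3642 to 6703 in restraint with linalool rats, against 3842 to 4783 in linalool rats, and 3202 to 4178 in restraint rats, against 4221 to 4560 in control rats. Aif1 (0.66, SE 0.22) and Tyrobp (0.60, SE 0.27) were positive at an unadjusted p under 0.05, and Tmem119 (-0.44, SE 0.19) and Cx3cr1 (-0.40, SE 0.18) were negative. Of all probe sets, 3.94% were positive and 4.06% negative at that level. The purinergic receptor P2ry12 measured 8.14, 7.88, 8.07 and 8.78 in restraint with linalool rats, against 8.83, 9.46, 9.55 and 9.24 in linalool rats. In restraint rats it was 8.20, 8.25, 8.47 and 8.16, against 9.34, 9.03, 9.35 and 9.14 in control rats. It fell with restraint in both conditions, by 1.05 under linalool and 0.95 without odour, and its interaction was -0.10 (SE 0.25).

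Astrocyte (0.06), oligodendrocyte (0.08), endothelial and pericyte (0.10) and neuron (-0.00) markers had medians near that of all probe sets, and neuron markers summed to 36140 to 39340 in restraint with linalool rats, 35660 to 38792 in linalool rats, 36952 to 40678 in restraint rats and 35503 to 39564 in control rats. The 4 measured markers of thalamus and cortex were all positive, with a median of 0.32, which was 0.17 within the BioC-low arrays. Their summed signal was 1224 to 2107 in restraint with linalool rats, 1127 to 2539 in linalool rats, 925.8 to 2188 in restraint rats and 1109 to 3432 in control rats. Of 12 measured hypothalamus markers, 10 were negative and the median was -0.12, which was -0.048 without restraint with linalool rat 4. They summed to 21592 to 27989 in restraint with linalool rats, 21475 to 30696 in linalool rats, 20053 to 26584 in restraint rats and 20361 to 26106 in control rats. The 7 markers of choroid plexus and ependyma had a median of 0.13, with 4 positive. The 4 pituitary markers all had negative interactions, with a median of -0.87. The hormone subunits Cga (-1.16, SE 1.19) and Tshb (-1.42, SE 1.22) were at 6.88 and 5.84 in control rat 3, far below the other control rats, and without that rat their interactions were 0.17 and -0.24. The gonadotropin subunit Lhb had -0.57 (SE 0.22). The 2 measured blood markers, Hbb (-0.54, SE 0.44) and Alas2 (-0.85, SE 0.54), were also negative, with summed signals of 2684 to 6663 in restraint with linalool rats, 2948 to 7584 in linalool rats, 5344 to 9974 in restraint rats and 2926 to 5845 in control rats.

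The average change with restraint over both odour conditions is a contrast independent of the interaction in this balanced layout, and it was called for 784 probe sets (4.21%), 493 higher (2.65%) and 291 lower (1.56%). Without restraint rats 1 and 2, it was called for 509 and 517, and without linalool rats 1 and 3 for 517 and 489. Of the 784, 60.5% had a change of larger size under linalool than without odour, against 53.1% of all kept probe sets. The share was 61.1% of those called higher and 59.5% of those called lower. At an unadjusted interaction p under 0.05, 60 changed more under linalool and 34 changed less, together 12% of the 784, where 7.99% of all probe sets passed. The share of larger changes was 73.8% within the BioC-low arrays, 87.8% with the signals as deposited and 48.0% to 70.7% with 1 rat left out. Groups are unequal within the BioC-low arrays and with 1 rat left out, so there the 2 contrasts are not independent. Choosing probe sets by the average then shifts the share by itself, and those shares cannot be set against 60.5%. In size the median difference was 0.05, beside a median average change of 0.39.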

How the data were processed

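The authors deposited 1 table of signal intensity for 31099 probe sets on 16 arrays, made with MAS5 per the submitters' processing notes. Its version and scaling target are not given in the sources used here. MAS5 combines perfect-match and mismatch probes into 1 linear signal, and per the labels' protocols the biotin-labelled cRNA came from TRIzol-extracted, column-cleaned RNA. Array levels were unequal, so quantile normalization was applied to log2 values, and the results were put back on the linear scale and used as log2(signal + 16), 16 being the pseudocount. This understates changes of dim genes and hides any change shared by most transcripts. The 57 control probe sets were left out, and the 18625 with a mean at or above the 40th percentile were kept. Of 31042 probe sets, 20826 had 1 gene symbol in the platform's annotation, 436 several and 9780 none. The kept ones named 10309 genes.

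Tests used limma 3.58.1 in R 4.3.3 (two-sided, with lmFit, contrasts.fit and eBayes), fitting the 4 group means to all arrays together (degrees of freedom: 12 residual, 3.97 prior). The Benjamini-Hochberg method adjusted p-values over kept probe sets, and those under 0.05 are called. The fit was also run on simulated data, drawn as independent normal values without outlying rats or shared array effects. That run therefore says nothing on how either affects the results. The number of arrays limits the precision, and p-values measure the spread between rats. The members and lists were chosen with earlier results of these data known. Of 100 genes, 74 followed the rule (10 smallest p per direction where fewer were called, 13 fixed genes, and 2 per list by p), 26 were added after their values were seen, and other list members are named with values only. Lists are described by counts and medians, with no test. Deviations of same-numbered rats correlated at -0.164 to 0.226 over 24 pairs (4 of them over 0.1), against -0.248 to 0.213 over 72 pairs of different number. The main fit did not pair rats by number. Such correlations cannot show whether number mattered for single genes. Rat 1 was the highest of its group in all 4 groups for Fos, Th and Slc6a3, and not for Jun or Ddc, which was seen after the fact and was not tested. Array correlations lay between 0.934 and 0.955, with 0 identical pairs. Alternatives covered scaling, pseudocount, filter, spike-in level, RNA quality, array weights and left-out rats. Promoter sequences were read from a RefSeq table, build GRCr8.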

Additional observations from a re-analysis of the deposited data

Results flagged for a closer look

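For each of 100 genes and 4 groups, the rat lying apart from the other 3 was looked for by the gap to its nearest neighbour relative to the range of the group. Of 400 groups 23 (5.75%) had such a rat, and chance gives about 1 in 20. Each value is a log2(signal + 16) level. Among restraint with linalool rats, the ones apart were rat 1 for Pla2g3 (6.17), rat 4 for Hlf (9.87), rat 2 for Gjb6 (10.60) and rat 3 for Mobp (13.15). Among linalool rats they were rat 4 for Katnip (6.58), rat 2 for Cebpb (6.29) and rat 1 for Cx3cr1 (7.34). Among restraint rats they were rat 1 for Slc1a2 (6.58), Ddx6 (10.06) and Pdk4 (9.38), rat 3 for Cplx2 (7.04), Hey2 (8.54), Sox18 (7.80) and Cebpb (6.39), and rat 4 for Ermn (10.13) and Gpr34 (6.07). Among control rats they were rat 2 for Per1 (6.86), rat 4 for Dnajb1 (9.62) and Rbm25 (8.80), rat 3 for Acvr2b (7.46), Cga (6.88) and Tshb (5.84), and rat 1 for Jund (12.06). The pituitary hormone subunits Cga and Tshb in control rat 3 had the widest gaps to the other control rats, at 11.99 to 12.27 for Cga and 10.23 to 10.94 for Tshb.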

How the results depend on the processing

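Over 31 alternatives, 16 of which left out 1 rat, 83 of 100 genes kept the sign of their interaction in each fit that held them. The 60th percentile filter left out some dimmer genes, which had 30 alternatives. Many of the genes were chosen by a small interaction p in these data, which favours a kept sign. The interaction was called for 1 probe set with a pseudocount of 64, the 60th percentile filter, BioC level as a block and limma's trend (Inpp5b each time), 1 with the signals as deposited (Nt5dc1), 1 without control rats 1 and 2 (no symbol), 0 to 1 with 1 rat left out (Inpp5b without restraint with linalool rat 3) and 14 with an RNA quality measure as a covariate, the ratio of 3' to 5' beta-actin signal, which was 4.93 in control rat 1 (Nup58, Bmpr2, Inpp5b, Katnip, Vof16 and Ddx6 among them). The cause was not tested. At an unadjusted p under 0.05 the interaction gave 1173 to 1980 probe sets with 1 rat left out. With the signals as deposited it gave 1208 positive and 21 negative (98.3% positive, against 49.2%).

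Calls with restraint under linalool numbered 1103 with the signals as deposited, 188 with no filter, 499 with BioC as a block, 73 within the BioC-low arrays, 553 with the actin ratio, 594 with array weights, 474 without control rats 1 and 2, and 113 to 397 with 1 rat left out. Without odour they numbered 54, 102 with no filter, 96 within the BioC-low arrays, 259 with the actin ratio, 72 with array weights, 44 without control rats 1 and 2, and 70 to 202. The average gave 458 within the BioC-low arrays and 489 to 1005 with 1 rat left out.

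Signs turned with the signals as deposited for Sgk1 (0.095), Per1 (0.098), Avp (0.19), P2ry12 (0.16), Hey2 (0.013), Xbp1 (0.011), Ndufs3 (0.043), Pdk4 (0.16), Nfkbia (0.016), Cd33 (0.13) and Drd2 (0.10). Mobp turned with a common median (-0.16) and with cyclic loess (-0.021), where Avp was 0.0043. Avp was 0.28 and P2ry12 0.087 within the BioC-low arrays, Pdk4 was 0.018 with BioC as a block, and Avp was 0.0019 with the actin ratio. Array weights turned Avp (0.082), Ermn (-0.0056) and Gpr34 (-0.043), and leaving out control rats 1 and 2 turned Per1 (0.035), Ermn (-0.025), Plekhf1 (-0.0068) and Gpr34 (-0.014). With 1 rat left out, the ranges that crossed 0 were those of Avp (-0.26 to 0.15), Per1 (-0.23 to 0.013), P2ry12 (-0.29 to 0.0074), Plekhf1 (-0.025 to 0.083), Pdk4 (-0.24 to 0.080), Hspa1a (-0.20 to 0.90) and Cga (-1.63 to 0.17). With the replicate number as a block, the interaction was called for 0 probe sets, with 1507 at an unadjusted p under 0.05. Fos then had an unadjusted p of 0.0063 and Th one of 0.000115, neither called. Apart from that fit, 5 of 16 arrays correlated best with their own number, where 24 pairs shared a number and 72 did not. That count was not tested.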
